A study of Mus musculus with 104 samples.

Results

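The arrays described here are the 10 labelled striatum of male BALB mice of middle or old age, 5 from mice of 12-13 months (middle) and 5 from mice of 21-23 months (old). They were chosen by these labels alone and are 10 of the 104 samples in the series. Each array was hybridised in 1 colour with total RNA of whole tissue from 1 sample, and the labels name no treatment, transgene or genotype beyond the strain. The question was whether gene expression differed between middle and old age in this region. A further 3 arrays of 2-3 months carry the same strain and region labels and entered the model fit, so that all ages shared 1 estimate of the spread, but were not part of the comparison. The labels do not say that the samples of a group came from separate mice, so p-values measure the spread between these samples.

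The striatum is the input nucleus of the basal ganglia. Most of its neurons are medium spiny projection neurons. Among the markers of these neurons are the dopamine receptors Drd1 and Drd2, the adenosine receptor Adora2a and the dopamine-regulated phosphatase inhibitor Ppp1r1b. The cerebellum has a different cast. Its granule neurons express the GABA receptor subunit Gabra6, the transcription factor Neurod1 and the synapse organiser Cbln1, its Purkinje cells express Pcp2 at very high levels, and its radial astrocytes are called Bergmann glia. In RNA of whole tissue, fewer cells of a type and less RNA per cell cannot be told apart.

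The markers on the arrays went against the label. Lists of marker genes were averaged on each array as log2 signal relative to the array's own 75th percentile, so that 0 is the level of a probe at that percentile. This was a check of the label and not a comparison between groups, and no test was run on it.

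The 14 granule neuron genes averaged between 1.69 and 2.52 on 9 of the 10 arrays. On the remaining array, old 3, they averaged -1.54. In 12 arrays of C57BL/6 cerebellum from the same series, the same genes ranged from 0.18 to 1.72, and in 18 arrays of BALB hypothalamus from -2.69 to -1.60. The 14 Purkinje cell genes found on the array ranged from 3.86 to 4.32 on the 9 arrays and stood at 0.94 on old 3, beside 2.28 to 3.64 in C57BL/6 cerebellum and 0.94 to 1.55 in BALB hypothalamus. On 9 arrays, cerebellar markers thus stood within or above the range of C57BL/6 cerebellum, and on 1 they stood below it.

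Single markers showed the same split on the quantile-normalized log2 scale, on which every array has the same distribution of signals. Gabra6 read 15.75, 15.15, 13.78, 15.24 and 15.57 on middle 1 to 5 and 15.11, 15.88, 5.14, 15.52 and 15.53 on old 1 to 5. Pcp2 read 17.37, 16.88, 16.92, 16.65 and 17.04 on the middle arrays and 16.81, 17.49, 10.30, 17.25 and 17.21 on the old arrays. For both genes old 3 was the lowest array by a wide margin, and the other 4 old arrays overlapped the middle arrays.

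Neurod1 ranged from 12.90 to 14.10 on the 9 arrays and read 8.21 on old 3. Cbln1 ranged from 16.29 to 17.01 on the 9 arrays and read 12.96 on old 3. All 4 cerebellar genes were well above background on all 10 arrays, the scanner software's criterion for a spot that is brighter than its surround.

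Striatal markers were not high on any of the 10 arrays. The 20 striatum genes averaged from -3.10 to -1.45 on the 9 arrays, below the range of -1.74 to -1.01 in C57BL/6 cerebellum except on middle 2, middle 3 and old 1, which lay within it. On old 3 they averaged -0.82, below the range of -0.22 to 0.54 in BALB hypothalamus, which is not striatum either. Drd1 read 5.42, 6.32, 5.49, 5.47 and 5.74 on the middle arrays and 6.13, 5.39, 7.99, 6.38 and 6.28 on the old arrays, so that its highest value was on old 3. Drd2 ranged from 6.58 to 9.32 on the 9 arrays and read 9.58 on old 3. Ppp1r1b, which Purkinje cells also express, was lowest on old 3, at 8.86 against 9.55 to 10.40. Adora2a on old 3 read 10.94, inside the range of 9.63 to 11.44 on the others.

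Old 3 was instead highest for genes of the thalamus. The 9 thalamus genes averaged 2.18 on old 3 and from -0.89 to 0.72 on the other 9 arrays. Gbx2, a homeobox gene that marks thalamic neurons, read 10.62 on old 3 and from 3.51 to 6.61 on the other 8 arrays with a value. Tcf7l2, a further thalamic transcription factor, read 14.17 on old 3 and from 10.11 to 12.88 on the others. Of the 15 arrays labelled BALB cerebellum, the 11 of young and middle age were likewise low in granule neuron genes, from -1.71 to -0.09, and high in thalamus genes, from 1.51 to 2.61. The 4 old arrays labelled BALB cerebellum had granule neuron genes at 1.39 to 2.38 and thalamus genes at -0.97 to -0.08. Over 22787 probes well above background on every array read here, old 3 correlated most closely with 10 arrays labelled BALB cerebellum, 9 of them young or middle (0.981 to 0.998) and 1 old (0.974). The first array of its own label was young 3, at 0.973. The other young and middle arrays labelled BALB cerebellum, young 4 at 0.970 and middle 2 at 0.963, came after it, and the other 4 old arrays of its own label were at 0.936 to 0.971.

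**Figure D1:**
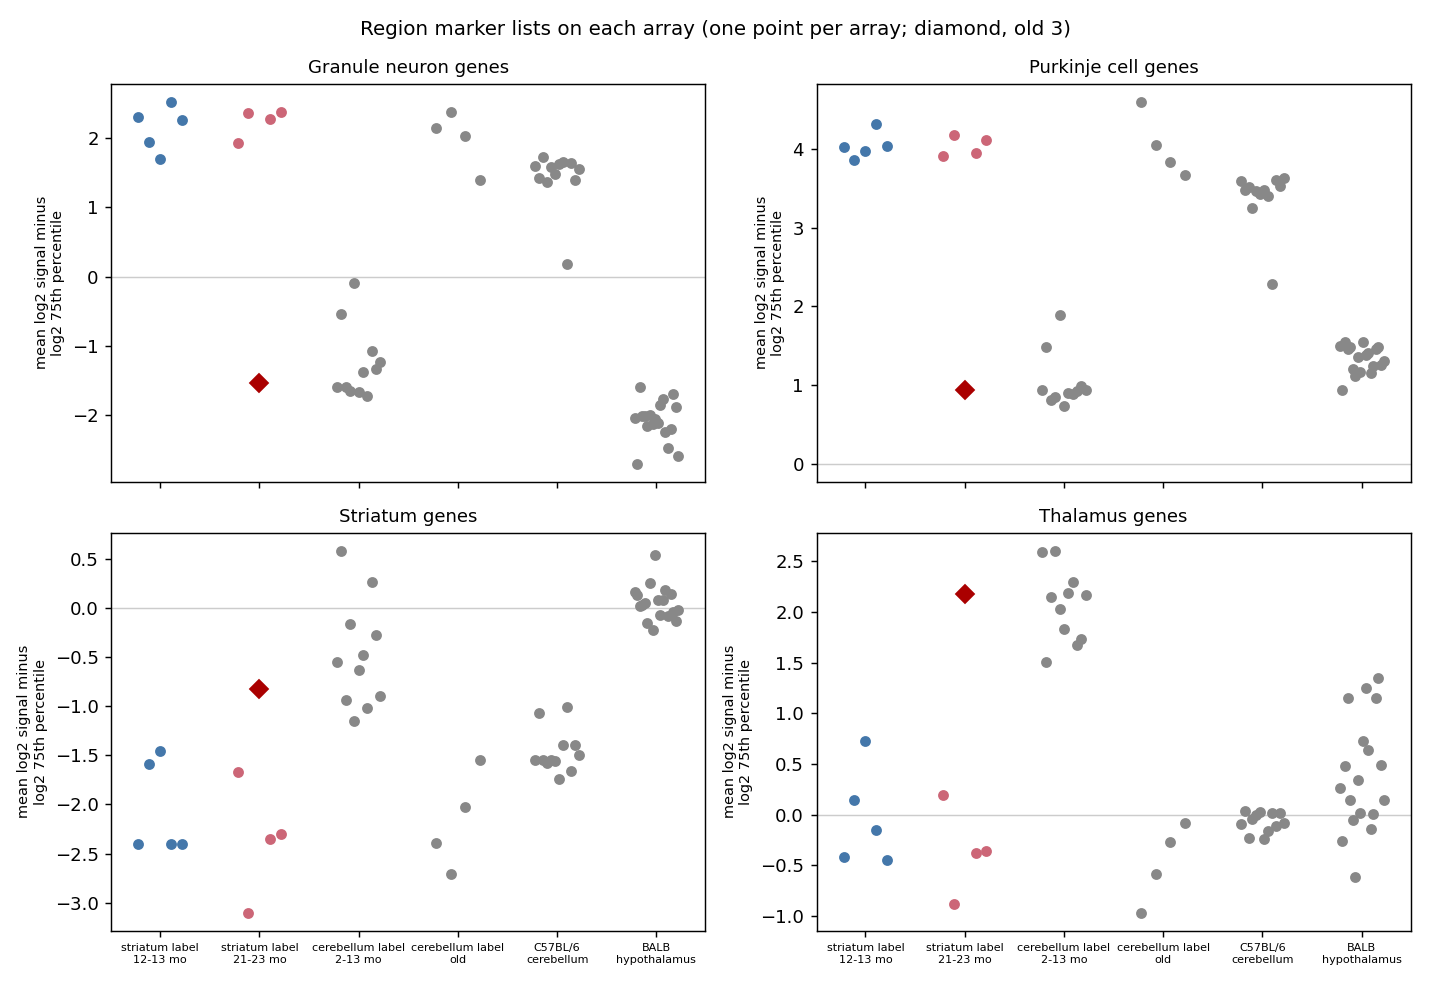
Mean log2 signal of 4 marker lists relative to each array's 75th percentile, 1 point per array, for the 5 middle (blue) and 5 old (red) striatum-labelled arrays and for reference arrays of the series (grey). The diamond is old 3, which has granule neuron genes at -1.54 and thalamus genes at 2.18 while the other 9 striatum-labelled arrays have granule neuron genes at 1.69 or higher.

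No array was given another label or moved to another group. Because 1 of 5 old arrays differed so much in tissue markers, the comparison was made with all 10 arrays and without old 3. Some single genes are given from only 1 of these fits.

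Signal and detection varied moderately. The 75th percentile of the signal ranged from 1086 on middle 4 to 2604 on old 4, a ratio of 2.40, and 73.3% to 87.5% of probes were well above background. Middle 3 and middle 4 had 930 and 427 outlier spots beside 81 to 199 on the others. They also stood apart in expression. The share of genes more than 2-fold from the mean of the other arrays, old 3 left out of that mean, was 17.7% on middle 3, 12.5% on middle 4 and 16.2% on old 3, beside 1.60% to 4.54% on the other 7 arrays. The median correlation with the other 12 arrays of the label was 0.959, 0.965 and 0.954 on these 3 arrays and 0.985 to 0.990 on the other 7. The 13 arrays of the label lay on 8 slides, and 2 slides held both ages, with middle 3 and old 1 on one and middle 4, middle 5 and old 5 on the other.

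No gene was called different between 21-23 and 12-13 months. With all arrays, limma tested 22057 genes and 0 of them (0%) had B above 0, the study's criterion, under which the log odds favour a difference. The smallest Benjamini-Hochberg adjusted p was 0.876. Unadjusted limma p was under 0.05 for 1.22% of genes, less than the share of 0.05 that this level passes on average when nothing differs. At that level, 144 genes were higher (0.653%) and 126 lower (0.571%) in the old arrays. This split moved to 25 higher and 301 lower when arrays were scaled to their 75th percentile instead, while the median difference over all genes moved from 0.034 to -0.04.

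Without old 3, 22393 genes were tested and again 0 (0%) had B above 0, with a smallest adjusted p of 0.941. Unadjusted p was under 0.05 for 67 genes that were higher (0.299%) and 70 that were lower (0.313%). With old 3, middle 3 and middle 4 left out together, an alternative chosen after seeing the data, 0 genes had B above 0 and 120 had an unadjusted p under 0.05. The share of genes at that level was 7.69% without middle 1, the highest of the arrays left out in turn, and 0 genes were called there too.

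The precision of these arrays sets what could be seen. The 95% interval of a gene's difference had a median half-width of 0.46 on the log2 scale with all arrays, a factor of 1.38, and the half-width was under 1 for 90.7% of genes. Without old 3 the median half-width was 0.459. These are intervals of single genes without adjustment. A call needs a larger difference relative to its error, and genes whose own interval excluded 0, such as Cspp1 with limits of -1.47 and -0.42, were not called.

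**Figure D2:**
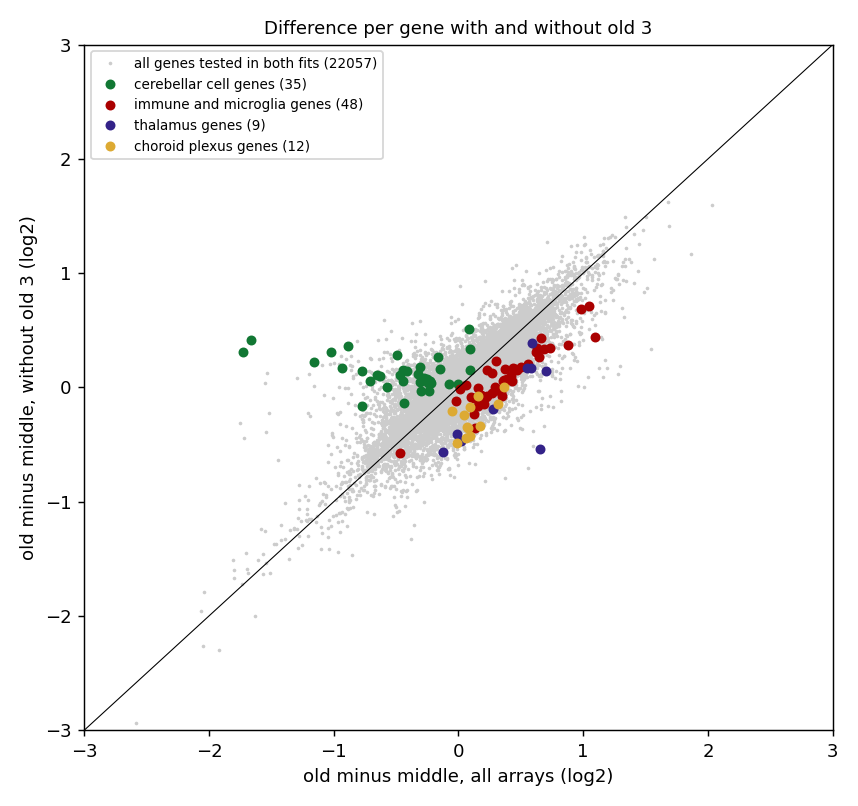
Old minus middle difference of each gene on the log2 scale, with all arrays (horizontal) and without old 3 (vertical), for 22057 genes (grey) and for listed genes (colours); the line marks equal values. The cerebellar cell genes lie left of the line and the immune, microglia and thalamus genes right of it, so that leaving out old 3 moved the granule neuron median from -0.38 to 0.16 and the immune median from 0.31 to 0.06.

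Since no gene was called, the 5 genes of smallest p in each direction and each fit are given. None of them was called, and the values are a description. Choice by smallest p favours groups that do not overlap, and the share of all genes without overlap is not given here. Clone and predicted names were left out.

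Tdrd6, a tudor domain protein of germ cells, was well above background on all 10 arrays. It read 5.50, 5.44, 5.38, 4.92 and 5.15 on the middle arrays and 5.64, 5.82, 6.76, 6.27 and 5.61 on the old arrays. The groups did not overlap with or without old 3, and the difference was 0.74 ± 0.22 (SE, n = 5 and 5; limma adjusted p = 0.876). Without old 3 it was 0.55 ± 0.18, with adjusted p = 0.941. On the slides that held both ages the difference was 0.26 and 0.57.

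Zc3h3, a zinc finger protein of mRNA export, was lower in the old arrays by 0.68 ± 0.22 (limma adjusted p = 0.876). It read 6.06, 6.24, 7.12, 7.10 and 6.19 on the middle arrays and 6.00, 5.79, 5.59, 5.85 and 6.09 on the old arrays. Its highest values were on middle 3 and middle 4, the arrays that stood apart, and the groups overlapped.

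Cspp1 encodes a protein of centrosomes and spindle poles. It read 4.76, 5.53, 5.48, 6.18 and 6.11 on the middle arrays and 4.67, 4.82, 4.31, 4.55 and 5.00 on the old arrays, a difference of -0.94 ± 0.24 (limma adjusted p = 0.876). Middle 1 lay among the old arrays. On the slides with both ages the difference was -0.81 and -1.14, and without old 3 it was -0.85 ± 0.25.

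Atp12a, the catalytic subunit of a potassium-transporting ATPase, read 4.64, 4.65, 5.23, 5.32 and 5.06 on the middle arrays and 4.55, 4.10, 4.37, 4.05 and 4.61 on the old arrays. The groups did not overlap, by a narrow margin, and 2 of the old values were not well above background. The difference was -0.64 ± 0.21 and limma's adjusted p was 0.876.

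Bcl2a1c, of a family of survival proteins with near-identical copies that 1 probe may not tell apart, read 4.89, 4.65, 3.19, 4.03 and 4.81 on the middle arrays and 4.86, 5.71, 6.83, 5.25 and 5.83 on the old arrays. The groups overlapped, since old 1 lay below middle 1. The difference was 1.38 ± 0.38 with all arrays and 1.09 ± 0.33 without old 3, and the highest value was on old 3.

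Rem1, a small GTPase that restrains calcium channels, was well above background on all 5 middle arrays and not well above background on any old array. Its middle level was at least 1.65-fold higher than the old level, with limma's adjusted p at 0.876. The measured means were 4.83 in the middle and 3.54 in the old arrays.

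Khdc1a had 3 middle and 4 old values left after outlier spots, and none of these old values was well above background. Its measured difference of -1.42 ± 0.37 is therefore one between a level and background. The remaining genes higher in the old arrays were dim. Olfr494, an olfactory receptor, was above background on 1 middle and 5 old arrays. Its measured difference of 1.69 ± 0.46 is therefore mostly one from background. Dnhd3 was above background on 2 middle and 3 old arrays, as was Gzmd, which encodes a granzyme of cytotoxic cells. They differed by 1.48 ± 0.48 and 0.67 ± 0.24.

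Leaving out old 3 brought 4 further genes into the list, and none of them was called. Btla, an inhibitory receptor of lymphocytes, read 6.66, 2.69, 6.58, 6.86 and 5.98 on the middle arrays and 2.59, 1.81, 4.65, 1.80 and 4.98 on the old arrays. It differed by -2.93 ± 0.89 without old 3 (limma adjusted p = 0.941) and by -2.59 ± 0.87 with it, and middle 2 lay among the low old arrays. Tnfsf14, a ligand of the receptor that Btla binds, differed by -1.63 ± 0.57 without old 3, with values of 4.28 to 7.01 on the middle and 2.78 to 4.78 on the other 4 old arrays. Both groups of each gene held arrays on which it was not well above background.

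Serpina3k, a protease inhibitor with close relatives, was above background on 1 middle array and on 3 old arrays, and was tested only without old 3. Its difference is not given, since the middle level was at background on the other 4 arrays. It read 5.61, 5.48 and 4.16 on old 1, old 4 and old 5, and 1.82 to 2.98 on the other 7. Olfr684 was 0.73 ± 0.24 higher without old 3 and 0.54 ± 0.27 with it.

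**Figure D3:**
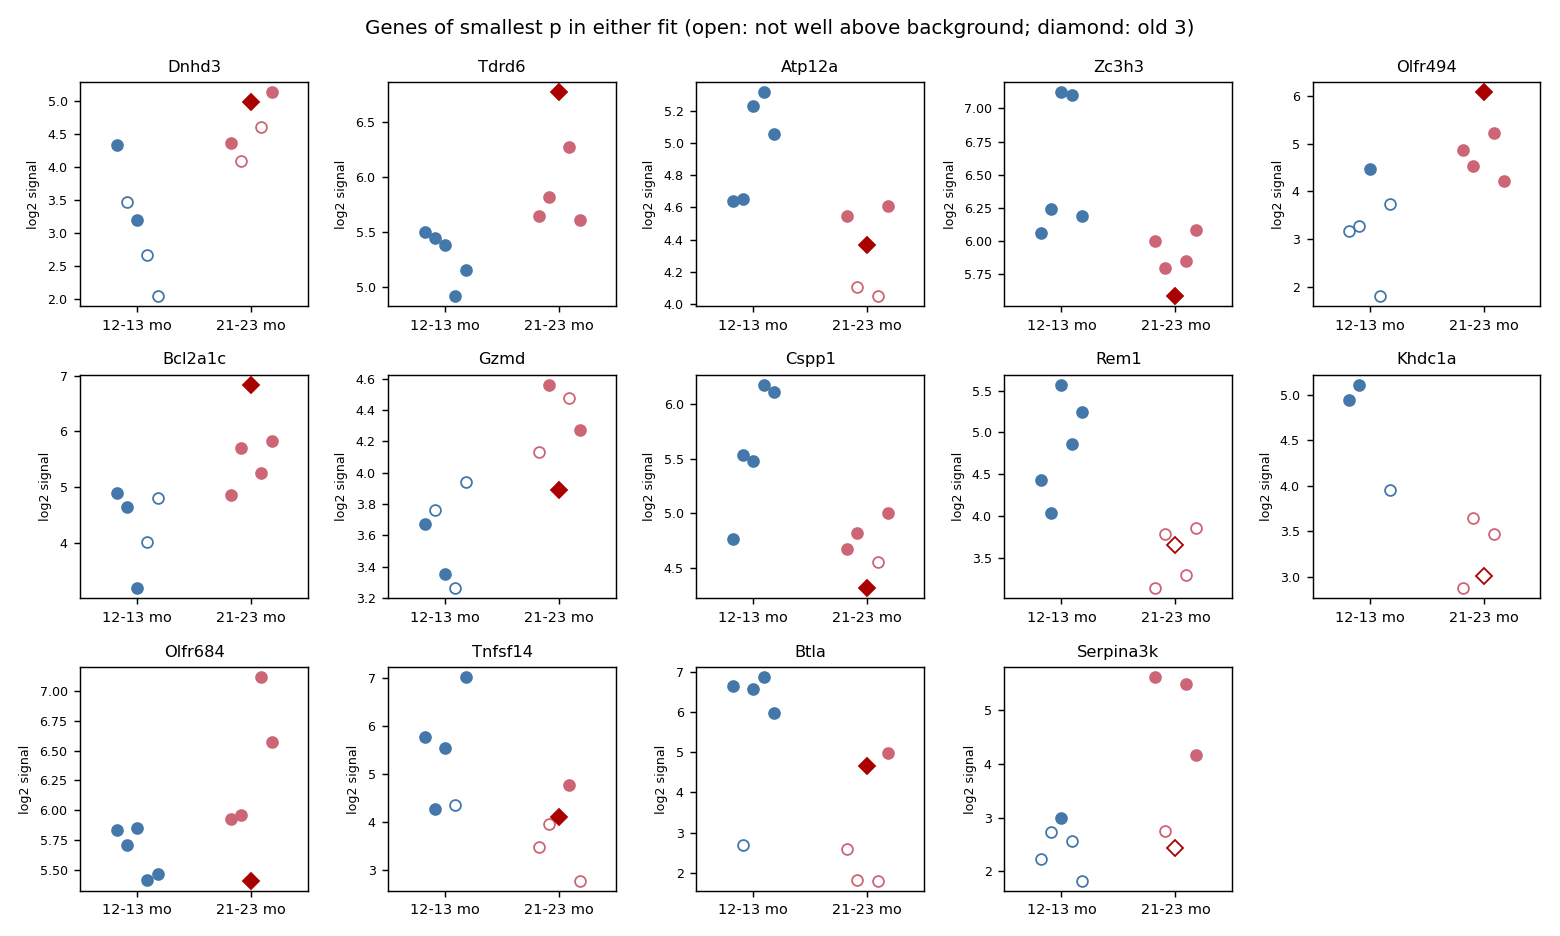
Quantile-normalized log2 signal of the 14 named genes on each of the 5 middle (blue) and 5 old (red) arrays; open symbols are values not well above background and the diamond is old 3. Tdrd6, Atp12a, Rem1 and Khdc1a have groups that do not overlap, which choice by smallest p favours, while the groups of Btla, Cspp1 and Bcl2a1c overlap.

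The study's theme was age-related expression of immune genes. A list of 35 immune and defence genes was made from examples that the study names for C57BL/6 cerebellum and BALB hypothalamus, with the families it names only as a group written out (the C1q chains, Fc receptors and lysozyme), and all 35 were tested here. The study named its examples from a comparison of young with aged mice, whereas the values here compare middle with old age. They hold complement (C1qa, C1qb, C1qc, C3, C4b), Fc receptors, MHC class I heavy chains (H2-D1, H2-K1) and genes of phagocytes such as Tyrobp, Trem2 and Cd68. With all arrays, 34 of the 35 had a difference above 0, with a median of 0.31 beside 0.03 over all genes, of which 56.5% were above 0. At an unadjusted p under 0.05, 1 of the 35 was higher and 0 were lower, beside 0.653% and 0.571% of all genes, and 0 were called.

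Without old 3, 19 of the 35 had a difference above 0 and the median was 0.06, beside 0.03 over all genes. None had an unadjusted p under 0.05 in either direction, and 0 were called. The median lower and upper 95% limits of the 35 genes were -0.38 and 0.47, and the highest upper limit was 1.56.

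Averaged over the list relative to the mean of the 5 middle arrays, the immune genes stood at 0.18, 0.39, 1.54, 0.08 and -0.30 on old 1 to 5 and between -0.12 and 0.09 on the middle arrays. Old 3 was the highest of the 10 arrays for 32 of the 35 genes, where it was the highest for 23.0% of all genes. Old 1 and old 2 also lay above the middle arrays, old 4 lay among them and old 5 below. The old mean was 0.38 ± 0.69 (SD, n = 5) with old 3 and 0.09 ± 0.29 (SD, n = 4) without it, and within the slides that held both ages the difference was 0.09 and -0.28. The 3 young arrays, at 0.25 to 0.62, were higher than all 5 middle arrays.

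**Figure D4:**
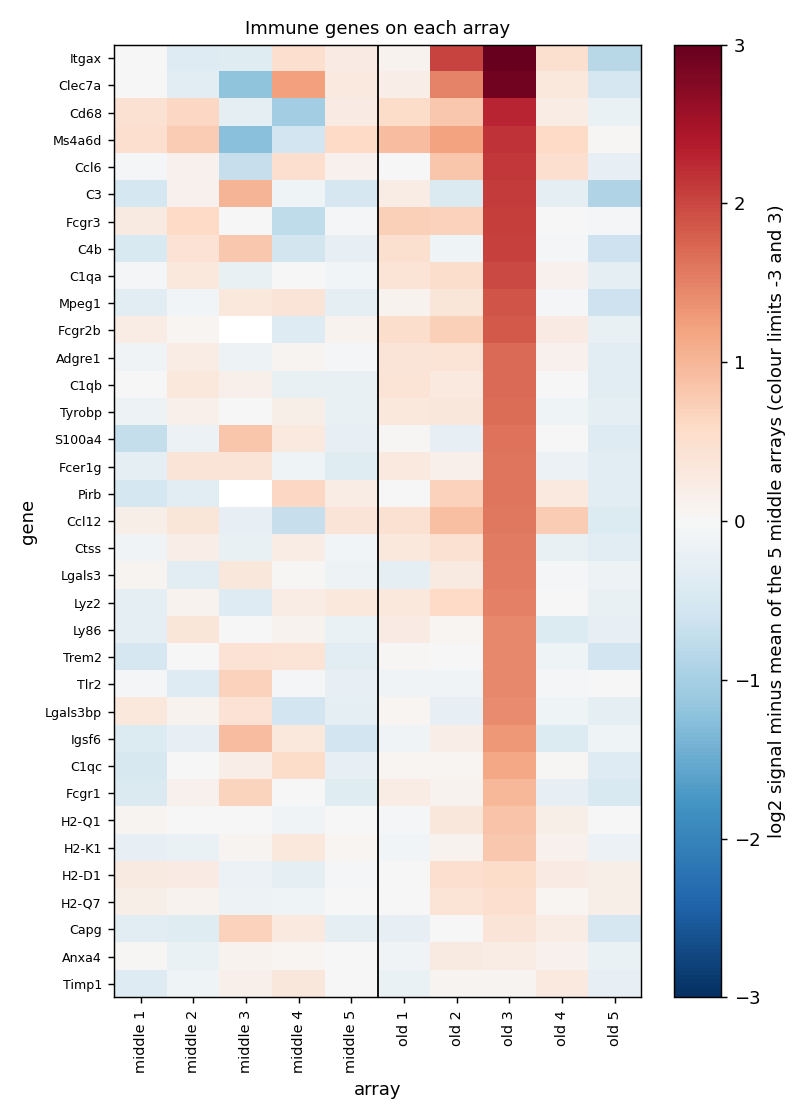
Log2 signal of the 35 immune genes (rows, ordered by old 3) on each array (columns) relative to the mean of the 5 middle arrays; blank cells are outlier spots. The column of old 3 is high for most genes, with a mean over the list of 1.54, beside -0.30 to 0.39 on the other 4 old arrays.

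The 4 immune genes of smallest p with all arrays differed in how far they rested on old 3. Ms4a6d, a membrane protein of myeloid cells, read 6.43, 6.68, 4.67, 5.35 and 6.52 on the middle arrays and 6.85, 7.13, 8.09, 6.54 and 5.96 on the old arrays. Its difference was 0.98 ± 0.43 (limma adjusted p = 0.876; unadjusted p = 0.0415) and 0.69 ± 0.40 without old 3. Its low values were on middle 3 and middle 4, and on the slides that held both ages the difference was 2.18 and 0.03.

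Ccl12, a chemokine that attracts monocytes, read 6.78, 6.97, 6.37, 5.93 and 7.00 on the middle arrays and 7.08, 7.53, 8.20, 7.38 and 6.19 on the old arrays. The groups overlapped only through old 5. The difference was 0.66 ± 0.32, and 0.43 ± 0.29 without old 3.

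H2-D1, an MHC class I heavy chain, read 13.64, 13.61, 13.20, 13.08 and 13.34 on the middle arrays and 13.37, 13.88, 13.93, 13.61 and 13.55 on the old arrays. Old 1, old 4 and old 5 lay within the range of the middle arrays. It differed by 0.30 ± 0.15, and by 0.23 ± 0.15 without old 3, and neither passed the test. Fcgr2b, the inhibitory Fc receptor, differed by 0.62 ± 0.33 and by 0.31 ± 0.21 without old 3, and had 4 middle values because the spot on middle 3 was an outlier.

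Markers of microglia, the resident phagocytes of the brain, were likewise highest on old 3. With all arrays 12 of 13 had a difference above 0, with a median of 0.37, and without old 3 the median was 0.06 with 9 of 13 above 0. Relative to the middle mean the list stood at 1.47 on old 3, from -0.23 to 0.40 on the other 4 old arrays and from -0.24 to 0.41 on the middle arrays. All 13 genes were well above background on all 10 arrays, including Cx3cr1, P2ry12 and Tmem119. P2ry12, the purinergic receptor of resting microglia, differed by 0.63 ± 0.36 and by 0.34 ± 0.30 without old 3. Gpr34 differed by 1.05 ± 0.51 and 0.71 ± 0.48, and Sall1, a transcription factor of microglia, by -0.47 ± 0.27 and -0.58 ± 0.28. The part of microglia in the immune values was not tested.

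Lists of the other cell types were also read against the region. Of the 14 granule neuron genes, 13 had a difference below 0 with old 3 (median -0.38) and 13 had one above 0 without it (median 0.16). Of the 14 Purkinje cell genes 0 were above 0 with old 3 (median -0.46) and 11 without it (median 0.10). Gabra6 differed by -1.66 ± 1.69 with all arrays and by 0.41 ± 0.36 without old 3. Pcp2 differed by -1.16 ± 1.12 and 0.22 ± 0.18, Neurod1 by -0.94 ± 0.92 and 0.17 ± 0.27, and Cbln1 by -0.65 ± 0.64 and 0.11 ± 0.19. The direction of all 4 turned with that 1 array, and 0 of the 35 cerebellar genes, the 7 of Bergmann glia included, had an unadjusted p under 0.05 in either fit.

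The 9 thalamus genes had a median of 0.55 with old 3 and -0.19 without it. Vav3, a guanine nucleotide exchange factor, differed by 0.59 ± 0.24 (unadjusted p = 0.029, limma adjusted p = 0.876) and by 0.39 ± 0.20 without old 3. Rgs16, a regulator of G protein signalling, ranged from 10.84 to 11.32 on the 9 arrays and read 13.21 on old 3. The 19 striatum genes tested had 10 differences above 0 with old 3 and 7 without it.

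Oligodendrocyte genes, which encode and support myelin, had a median of 0.23 with old 3, 13 of 14 above 0, and of 0.04 without it, 10 of 14 above 0. Astrocyte genes had medians of -0.08 and 0.01, with Gfap, the astrocyte filament protein that reacts to injury, at 0.47 ± 0.34 and 0.19 ± 0.28, and Aqp4, the water channel of astrocyte end feet, at -0.32 ± 0.16 and -0.30 ± 0.18. The 11 genes of the meninges had medians of 0.06 and 0.15, with Ogn, a matrix proteoglycan, at 0.43 ± 0.28 and 0.53 ± 0.30. Markers of T cells (7 of 9 above 0, then 4 of 9) and of B cells (4 of 6, then 1 of 6) had fewer differences above 0 when old 3 was left out, and none of these genes was called.

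Genes of the choroid plexus, which secretes cerebrospinal fluid and lies in the ventricles of the brain, varied widely within both ages. Relative to the middle mean, the list stood at 1.41, -1.48, 1.52, -1.90 and 0.45 on middle 1 to 5 and at -1.44, -1.54, 1.66, 0.47 and 1.44 on old 1 to 5. Transthyretin (Ttr), the plexus's main secreted carrier protein, read 14.49, 9.30, 14.02, 9.19 and 13.41 on the middle arrays and 9.62, 9.78, 14.32, 13.09 and 14.47 on the old arrays. Both ages held arrays with high and with low values. On the slides with both ages the list differed by -2.97 and 2.16, in opposite directions.

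The pathway lists held no called gene in either fit. Of 15 interferon-induced genes, 11 had a difference above 0 with old 3 and 5 without it (medians 0.15 and -0.02). Oasl2, an antiviral synthetase-like protein, differed by 0.45 ± 0.28 and 0.21 ± 0.23. Immediate early genes, which follow neuronal activity, had medians of 0.13 and 0.20, with Fosb at 0.43 ± 0.23 and Npas4 at 0.70 ± 0.43 with all arrays. The 35 genes of oxidative phosphorylation had medians of -0.05 and -0.02, the 20 of cholesterol synthesis 0.01 and -0.06 and the 16 of the circadian clock 0.09 and 0.11. Insig1, which holds back cholesterol synthesis, differed by -0.32 ± 0.22 and -0.42 ± 0.22. Among synapse genes, the glutamate receptor subunit Gria4 differed by -0.91 ± 0.45 and -0.50 ± 0.34. Beside Ms4a6d and Vav3, Tshb, a pituitary hormone subunit, was the only listed gene with an unadjusted limma p under 0.05 with all arrays. It differed by 0.55 ± 0.23 and by 0.53 ± 0.25 without old 3. All 7 tested genes of the hindbrain outside the cerebellum had a difference below 0 with old 3 (median -0.77) and 6 of 7 without it (median -0.43). Hoxb4, a homeobox gene of that region, differed by -1.39 ± 0.65 and -1.33 ± 0.71. The lists of oligodendrocyte precursors, blood vessels, red blood cells, forebrain, hypothalamus, heat shock, inhibitory synapses and senescence had no gene with an unadjusted p under 0.05 in either fit.

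The change with age was also set against that in BALB hypothalamus (5 arrays of 12-13 months and 6 of 20-23 months), the same strain in a region whose label the markers bear out: hypothalamus genes averaged 1.19 to 1.92 there and -5.32 to -2.41 on the 13 striatum-labelled arrays. Both cohorts were normalized and fitted together, and the difference between the 2 changes was tested for each gene. Of 22492 genes, 0 (0%) had B above 0 for that difference, and of 22866 without old 3, 0 (0%). In the same fit 33 genes were called between the ages in the hypothalamus (0.147%), 32 of them higher in old mice, a count that was 0 without hypothalamus middle 5, 6 without old 1, 10 without old 4, 15 without middle 3, 15 without old 6 and 76 without old 5. For the striatum-labelled arrays this joint fit called 0 genes between the ages with all arrays and without any array but striatum middle 1, without which it called 54.

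All 35 immune genes had a hypothalamic difference above 0, with a median of 0.50, and 17 of them had an unadjusted p under 0.05 (3.44% of all genes were higher at that level). The study picked the genes behind the list partly on these hypothalamus arrays, as differences between young and aged mice. Their hypothalamic differences are therefore not independent evidence. Nor are the differences between the regions below, which that choice favours towards values below 0. In the striatum-labelled arrays the median in the same fit was 0.32 with old 3 and 0.07 without it. The difference between the regions was below 0 at an unadjusted p under 0.05 for 3 of 35 genes with old 3, where 1.19% of all genes were lower and 1.72% higher, and for 11 of 35 without it, where 1.06% were lower and 1.16% higher. No immune gene was above 0 at that level, and none passed adjustment (smallest limma adjusted p 0.9985 without old 3).

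Lgals3, Lyz2 and Timp1, named here after their values were seen, had the smallest p of the list without old 3. Their values below are from that fit. Old 3, which it leaves out, stood 1.55, 1.44 and 0.10 above the mean of the other arrays compared for these genes. Lgals3, a lectin of activated phagocytes, was 1.01 higher in old hypothalamus and differed by -0.05 in the striatum-labelled arrays, a difference between regions of -1.06 ± 0.31. Lyz2, the lysozyme of macrophages, had 1.43 and 0.17, a difference of -1.25 ± 0.41. Timp1, a protease inhibitor, had 0.72 and -0.01, a difference of -0.73 ± 0.24.

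Genes of the meninges, the membranes around the brain, were also higher in the old hypothalamus arrays. All 11 had a difference above 0 there with a median of 0.996, and 10 had an unadjusted p under 0.05. Their mean level ranged from -0.87 to 0.60 on the hypothalamus arrays of middle age and from -0.35 to 1.67 on the old ones, with medians of -0.38 and 1.08. On the striatum-labelled arrays it ranged from 0.04 to 0.88 at middle age and from 0.19 to 0.90 at old age. The part of the meninges in the difference between regions was not tested.

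**Figure D5:**
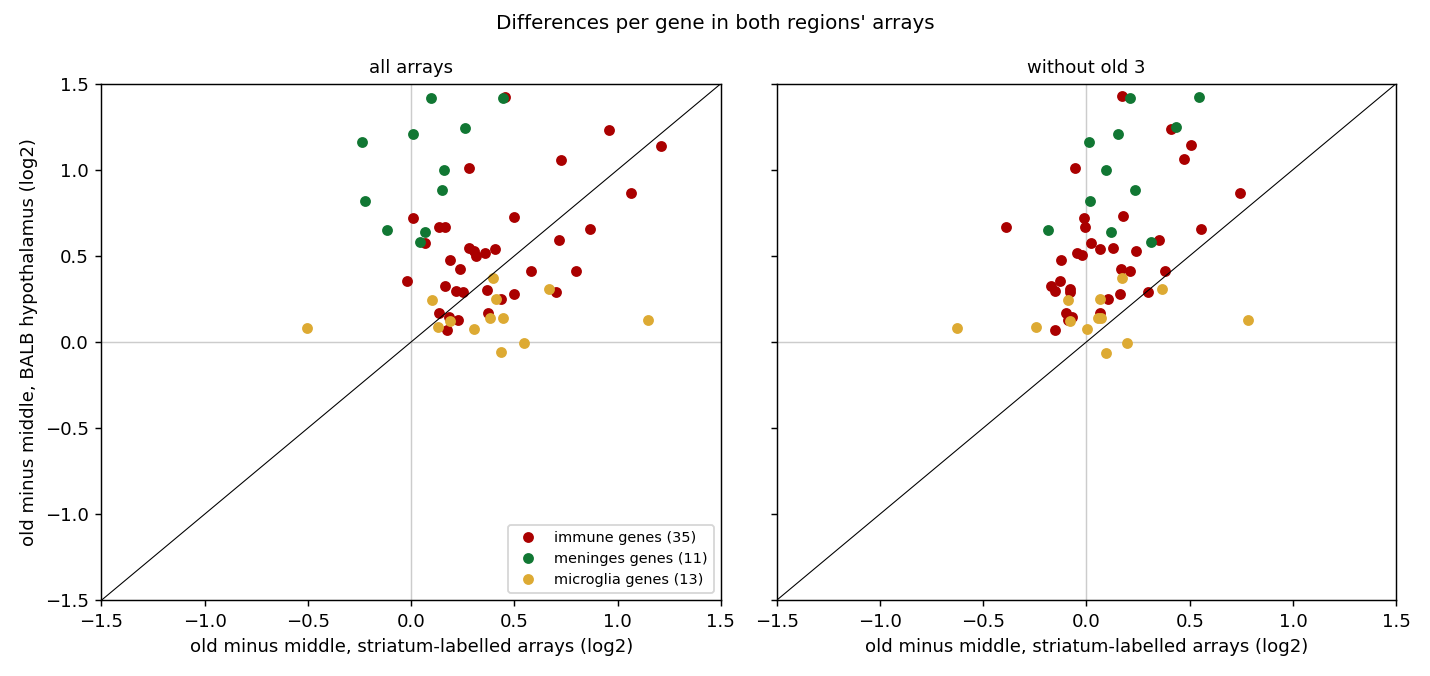
Old minus middle difference of each immune, meninges and microglia gene on the log2 scale in BALB hypothalamus (vertical) and in the striatum-labelled arrays (horizontal), with all arrays (left) and without old 3 (right); the line marks equal values. Without old 3 the immune genes move left towards 0, from a median of 0.32 to 0.07, while their hypothalamic median is 0.50.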

How the data were processed

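Total RNA of whole tissue was amplified, labelled with Cy3 and hybridised to Agilent whole mouse genome arrays. The authors deposited the scanner output of Agilent Feature Extraction, in which intensity is the processed signal after background subtraction. The file headers of the striatum-labelled arrays give version 10.5.1.1, and the submitters' processing notes name 9.1. The authors also deposited a matrix of log2 values. Each of its 13 columns used correlated best by rank with the scanner file of the same array (0.992 to 0.998), and it served as an alternative.

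From the scanner files, outlier spots were left out, spots of 1 probe averaged, and log2 processed signals quantile normalized over the 13 striatum-labelled arrays. Of 41174 probes, 22951 were named through RefSeq accessions and the others kept the name of the array design, taken from the BALB hypothalamus files, giving 28786 gene names. A probe was tested when well above background on as many of the 10 arrays as the smaller group has. Linear models came from lmFit with moderated statistics from eBayes (prior proportion 0.01; limma 3.58.1, statmod 1.5.0, R 4.3.3). A gene was called when any probe had B above 0, and is described by its brightest probe; adjusted p-values are Benjamini-Hochberg over all probes tested. The named genes were the 10 largest called differences in each direction whose groups do not overlap, or, where fewer than 5 qualified, the 5 of smallest p, in the fits with and without old 3, plus up to 4 members of each list by p and region markers; some of these are not reported here. Of 407 listed genes in 29 lists, 401 were on the array. The members and lists were chosen with earlier results of these data known. Alternatives were scaling to the 75th percentile, normexp (offset 50; on spot medians, since the files hold no spot means), other filters, slide and replicate blocks, array weights, the 10 arrays alone, the deposited matrix, an adjusted p threshold and leaving out arrays. The steps were tested on simulated data. Arrays give no read depth, and their number limits the precision. The young, CBA, frontal cortex and C57BL/6 hypothalamus comparisons were not analysed here.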

Additional observations from a re-analysis of the deposited data

Results flagged for a closer look

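In 146 tests of groups of 5 arrays, 15 had 1 array far from the other 4 by Dixon's ratio (critical value 0.71). Chance flags about 1 in 20 independent groups, and these are not independent, since Gabra6, Neurod1 and Cbln1 are also members of the granule neuron list and Pcp2 of the Purkinje cell list. Old 3 accounted for 9 of the 15. That 1 old array lacked cerebellar markers was known before these tests, so its values for them are a description. On that array the lists of granule neuron, Purkinje cell and Bergmann glia genes stood at -3.62, -3.07 and -1.46 relative to the middle mean, where the nearest old array had -0.15, -0.10 and -0.11. Gabra6 read 5.14 there against 15.11 on the nearest array, Pcp2 10.30 against 16.81, Neurod1 8.21 against 13.28, Cbln1 12.96 against 16.46 and Rgs16 13.21 against 11.32. The genes of oxidative phosphorylation stood at -0.14 on old 3 and at -0.02 on the nearest array. The part of the tissue in these values was not tested.

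The other 6 were spread over 5 arrays. The pituitary genes stood at 0.35 on old 4, the excitatory synapse genes at -0.14 on middle 1, Btla read 2.69 on middle 2, Adora2a 9.63 on old 2 and Hoxb4 5.33 on old 5, which also had 199 outlier spots where the next old array had 104.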

How the results depend on the processing

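The count of called genes was 0 under each alternative run: scaling to the 75th percentile, normexp, no filter or a filter on all 10 arrays, slide as a random or fixed block, the 10 arrays alone, array weights, the deposited matrix, an adjusted p under 0.05, each left-out array (range 0 to 0) and the 3 arrays that stand apart left out together. The count for the difference from BALB hypothalamus was 0 under each of its alternatives too (left-out arrays 0 to 0). At an unadjusted p under 0.05 at the brightest probe, 270 genes passed with all arrays, 137 without old 3, 881 without old 5, 1706 without middle 1, 664 without middle 2, 141 without middle 3, 108 without middle 4, 594 without middle 5, 624 with no filter, 168 with the filter on all 10 arrays, 660 with the slide as a fixed block and 167 with the 10 arrays alone.

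The deviations of the arrays gave no sign of pairing by replicate number, though such values do not settle whether samples were paired. Same-numbered middle and old arrays had deviations that correlated at -0.28, -0.15, 0.31, 0.23 and 0.09, and 1 of 5 old arrays correlated best with its own number. With a replicate block 0 genes were called and 298 had an unadjusted p under 0.05.

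The named differences that turned were mostly of region markers. With the slide as a fixed block Gabra6 was 0.64, Pcp2 0.16, Neurod1 0.026, Cbln1 0.13, Ppp1r1b 0.55 and Fcgr2b -0.0891, and with the slide as a random block Ppp1r1b was 0.0236. Array weights gave 0.0849 for Ppp1r1b. For Drd2, normexp gave 0.0334 and the deposited matrix gave 0.0108. With old 3, middle 3 and middle 4 left out together, chosen after seeing the data, Gabra6 was 0.0219, Pcp2 0.094, Neurod1 0.0764, Ppp1r1b 0.0289, P2ry12 -0.0164, Gfap -0.0369 and Oasl2 -0.0299. Leaving out 1 array at a time, differences ranged from -2.26 to 0.41 for Gabra6, -1.58 to 0.22 for Pcp2, -1.30 to 0.17 for Neurod1, -0.89 to 0.11 for Cbln1, -0.35 to 0.40 for Drd2 and -0.16 to 0.22 for Ppp1r1b. The cause was not tested. Of the 40 genes followed through these alternatives, no other difference turned. Scaling to the 75th percentile moved the median of the genes of oxidative phosphorylation to -0.17 and of excitatory synapses to -0.18, past the spread between arrays. For granule neuron genes, old 3 minus the mean of the other 9 arrays was -3.72 against the 75th percentile, -3.65 after quantile normalization and -2.91 after normexp.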

Other observations

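Genes of serotonin and noradrenaline neurons, whose cell bodies lie in the brainstem, differed between arrays of both ages. Tph2, the enzyme that starts serotonin synthesis, read 6.11, 11.19, 10.88, 7.99 and 7.68 on middle 1 to 5 and 11.04, 6.29, 11.43, 8.26 and 5.46 on old 1 to 5. Slc6a2, the noradrenaline transporter, ranged from 7.45 to 9.49 on the middle arrays and from 7.55 to 8.89 on the old arrays other than old 3, where it read 4.06. The high arrays for Tph2 were middle 2, middle 3, old 1 and old 3, so that both ages held both kinds.

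Middle 2 and old 1, of different age groups and on different slides, had the highest correlation of any pair of the 13 arrays, 0.997 over 27891 probes, with 0.996 for the next pair. Their deviations from the mean of the 12 arrays without old 3 correlated at 0.69. The next highest values were close, at 0.68 for old 2 with young 1 and 0.64 for middle 1 with old 2. On middle 2 and old 1 choroid plexus genes were low, at -1.48 and -1.44 relative to the middle mean, and Tph2 was high. The cause was not tested.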
